A study of Mus musculus with 6 samples.

Results

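Long intergenic noncoding RNAs (lincRNAs) are spliced or unspliced transcripts that code for no known protein and lie, for the most part, outside protein-coding genes. Here they were followed in mouse rod photoreceptors as the autosomal genes of the deposited biotype lincRNA (chromosomes 1 to 19) that reached at least 5 CPM (a gene's count scaled to a library total of 1000000) in all 3 libraries of at least 1 group. The rule set aside 8 well-known long noncoding RNAs, among them Malat1 and Meg3, and it found 115 genes of 4915 autosomal lincRNA rows, in a table of 52143 genes. The measured levels themselves therefore chose the members. Of the 115, 43 reached 5 CPM in all 6 libraries, 55 reached it in every library labelled Jun knockdown but not in every control, and 17 in every control but not in every library labelled Jun knockdown. The 55 and the 17 had to tend to differ between the groups, so their values are described without a test, and tests are given for the 43.

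All mice received plasmids by electroporation in vivo on postnatal day 0, and EGFP-positive rods were sorted by flow cytometry on postnatal day 10. In 3 libraries the cells carried an shRNA vector against Jun, the gene of a basic leucine zipper protein that forms AP-1 dimers. In 3 control libraries they carried the pLKO.1 vector with a scrambled shRNA. Every library also carried EGFP driven by the Nrl promoter, which is active in rods, so the sort keeps electroporated cells and says nothing of cells that took up only 1 of the plasmids. The labels give no strain, sex or number of animals for a library. The p-values thus measure only how the libraries vary, which may partly be technical.

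The libraries stood apart in ways that touch every value below. Totals ran from 13211279 to 13998395 counts in the libraries labelled Jun knockdown and from 32150086 to 105800769 in controls, so depth and group cannot be told apart. A level of 5 CPM was 66.1 to 70.0 counts in the libraries labelled Jun knockdown and 161 to 529 counts in controls. Jun itself stood at 2.01, 23.4 and 21.0 CPM in the libraries labelled Jun knockdown, against 5.10, 4.98 and 6.19 CPM in controls, so its RNA was lower in 1 of 3 and the label is used only as a name. Summed RNA of 10 rod marker genes was 13857 to 15710 CPM in the libraries labelled Jun knockdown and 86843 to 102492 CPM in controls. Of these 10, 8 were called lower and 9 had a lower mean in the libraries labelled Jun knockdown. Summed microglial markers (8 genes, 4 called lower, 7 with a lower mean) were at 2.19 to 5.73 CPM in the libraries labelled Jun knockdown and 636 to 802 CPM in controls. Summed Müller glia markers (7 genes) were at 290 to 396 CPM in the libraries labelled Jun knockdown and 1457 to 1653 CPM in controls. Bipolar cell markers (8 genes, 1 called higher and 1 lower) summed to 622 to 1110 CPM in the libraries labelled Jun knockdown and 315 to 446 CPM in controls. No Müller glia marker was called by edgeR, and 4 of the 7 had a lower mean in the libraries labelled Jun knockdown. Vascular and blood markers (6 genes, 3 called lower) summed to 2.43 to 4.39 CPM in the libraries labelled Jun knockdown and 132 to 284 CPM in controls, with Hba-a1 at 0 throughout the first group. No marker of the other 4 lists given so far was at 0 throughout a group. Summed cone markers (6 genes, 0 called) overlapped between groups, at 2511 to 3867 CPM in the libraries labelled Jun knockdown and 2470 to 4070 CPM in controls. Pigment epithelium markers (5 genes, 1 called lower) summed to 0.358 to 76.5 CPM in the libraries labelled Jun knockdown and 164 to 197 CPM in controls. The part of these cell types in the lincRNA results was not tested. In RNA from sorted pools fewer cells of a type and less RNA per cell cannot be told apart.

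Several lincRNAs are hosts, whose introns or exons hold small RNAs, and these small RNAs are often the better-known product. Small nucleolar RNAs guide the chemical modification of ribosomal and spliceosomal RNA. MicroRNAs pair with messenger RNAs through their seed, bases 2 to 8, and lower their output. Other lincRNAs act as RNA, by binding proteins or microRNAs, and for most no function is known: 106 of the 115 carry only a predicted-gene, RIKEN or clone name. The sequences of the microRNAs held by members that matched RefSeq (GRCm38.p6) show which families these hosts could supply. The seed is in capitals, miR-9 lies in C130071C03Rik, miR-3069 in Snhg10, miR-6516 in Snhg20 and miR-1839 in 2900076A07Rik.
mmu-miR-9-5p: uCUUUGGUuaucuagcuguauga
mmu-miR-9-3p: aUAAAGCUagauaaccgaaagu
mmu-miR-3069-5p: uUGGCAGUcaagauauuguuuagc
mmu-miR-3069-3p: uUGGACACuaaguacugccaca
mmu-miR-6516-5p: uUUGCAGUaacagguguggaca
mmu-miR-6516-3p: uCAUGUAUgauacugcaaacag
mmu-miR-1839-5p: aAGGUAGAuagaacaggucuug
No pair of these 7 shares a seed. The libraries measured host transcripts as long cDNA, not the mature microRNAs.

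Since Jun-family proteins bind short DNA motifs, the promoters of members that hold such a motif are shown as well. A RefSeq promoter (250 bases before to 50 after a start site, GRCm38.p6) lay within 1000 bases of the deposited 5′ end for 41 of the 115 members, 19 of them in the set of 43. Each motif was searched on both strands. The AP-1 motif TGAGTCA was in 1 of the 41, against 5.20% of 32851 RefSeq promoters of the same length. The cAMP response element TGACGTCA, a palindrome bound by CREB, ATF and Jun-ATF dimers, was in 2 of 41 (4.88%), against 1.79% of all promoters. The motif TAATCC, bound by the photoreceptor factor CRX, was in 4 of 41 (9.76%), against 7.06%, and the half-site TGCTGA of the rod factor NRL in 8 of 41 (19.5%), against 19.5%. A match is a run of letters and no measured binding. The promoters below are those with an AP-1 motif, a cAMP response element or a pair of CRX motifs, with only those letters in capitals, and none of the marked matches overlapped another of the 4 motifs. They are 1300002E11Rik (chr16:21794097-21794396, plus strand, motif starting at position -49 from the start site), 1810044D09Rik (chr6:91440737-91441036, plus strand, -48), D730003I15Rik (chr1:191224204-191224503, plus strand, the AP-1 motif read on the other strand, -11) and Snhg12 (chr4:132308428-132308727, plus strand, -203 and -28).
1300002E11Rik: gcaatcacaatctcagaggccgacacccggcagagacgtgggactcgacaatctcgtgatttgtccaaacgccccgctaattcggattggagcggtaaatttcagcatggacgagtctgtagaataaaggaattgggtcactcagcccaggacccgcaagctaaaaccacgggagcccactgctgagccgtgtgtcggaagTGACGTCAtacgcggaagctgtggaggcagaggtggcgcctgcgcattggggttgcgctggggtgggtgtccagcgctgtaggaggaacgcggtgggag
1810044D09Rik: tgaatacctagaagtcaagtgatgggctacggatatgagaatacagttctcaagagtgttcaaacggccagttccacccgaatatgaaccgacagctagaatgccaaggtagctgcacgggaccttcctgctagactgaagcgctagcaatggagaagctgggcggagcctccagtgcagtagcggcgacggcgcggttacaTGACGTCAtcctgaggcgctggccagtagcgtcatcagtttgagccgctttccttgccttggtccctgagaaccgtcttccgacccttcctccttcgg
D730003I15Rik: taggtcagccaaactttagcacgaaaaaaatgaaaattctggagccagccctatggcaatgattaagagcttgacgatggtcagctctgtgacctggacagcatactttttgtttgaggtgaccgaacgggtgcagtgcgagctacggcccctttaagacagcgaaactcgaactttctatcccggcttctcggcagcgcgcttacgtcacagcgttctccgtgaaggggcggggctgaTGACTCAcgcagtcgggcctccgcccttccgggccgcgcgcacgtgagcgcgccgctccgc
Snhg12: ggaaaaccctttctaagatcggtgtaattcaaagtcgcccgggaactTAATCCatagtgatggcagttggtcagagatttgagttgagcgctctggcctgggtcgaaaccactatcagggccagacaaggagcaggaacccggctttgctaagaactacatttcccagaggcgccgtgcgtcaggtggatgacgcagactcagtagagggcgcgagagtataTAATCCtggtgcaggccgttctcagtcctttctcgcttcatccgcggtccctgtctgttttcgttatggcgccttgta

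As a group, the members held a larger share of the counts in the libraries labelled Jun knockdown. All autosomal lincRNA rows together took 3.31 ± 0.613% of counts there and 1.21 ± 0.134% in controls (SD, n = 3 each). The exact two-sided permutation test gave p = 0.1, the smallest that 3 against 3 libraries allow. Much of that share was Malat1, which is no member. Without it the shares were 1.52 ± 0.0377% in the libraries labelled Jun knockdown and 0.780 ± 0.0836% in controls (SD, n = 3 each, exact permutation p = 0.1), a comparison chosen after its level was seen. The 115 members held 1.06, 0.958 and 0.982% of counts in the libraries labelled Jun knockdown and 0.536, 0.471 and 0.581% in controls. No library of one group overlapped the other, but the rule picked members on these same levels, so this is a description. The 43 members at 5 CPM in all 6 libraries held 0.759 ± 0.0661% in the libraries labelled Jun knockdown and 0.437 ± 0.0531% in controls (SD, n = 3 each). The other 4794 autosomal lincRNAs outside the list and the exclusions held 0.401 ± 0.0514% in the libraries labelled Jun knockdown and 0.199 ± 0.0211% in controls (SD, n = 3 each), and 1605 of them had 0 counts in all 6 libraries.

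**Figure D1:**
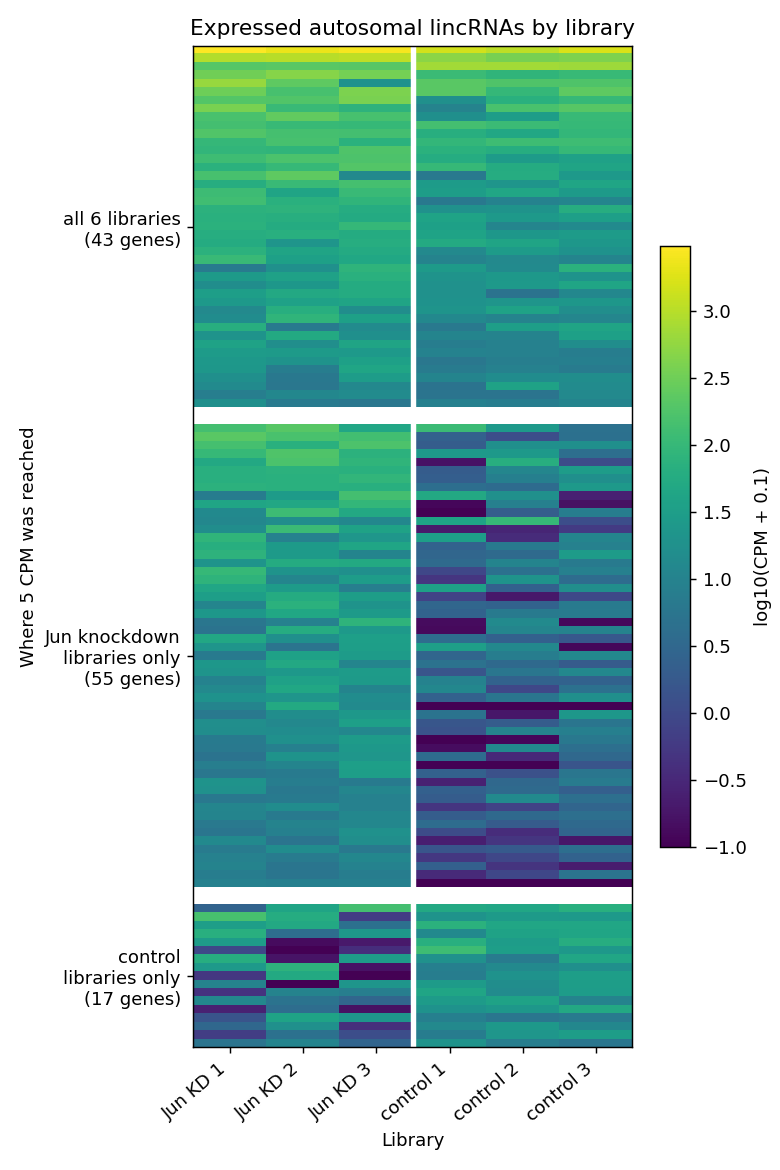
Level of each of the 115 lincRNAs (rows, log10 of CPM + 0.1, colour) in the 3 libraries labelled Jun knockdown and the 3 control libraries (columns), in 3 blocks by where 5 CPM was reached. Each of the 55 genes is under 5 CPM in at least 1 control, and each of the 17 in at least 1 library labelled Jun knockdown, as the rule requires. Single controls of the 55 can still be high, such as control replicate 1 for BC002059 (112 CPM). The block of 43 is filled throughout.

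Between libraries, 107, 108 and 104 of the 115 members were at 5 CPM or more in the libraries labelled Jun knockdown, against 69, 82 and 84 in controls. The rule fixes much of this, since the set of 55 had to reach 5 CPM in the first group and the set of 17 in controls. Counted over lincRNA rows without that choice, 254, 316 and 267 were at the minimum in the libraries labelled Jun knockdown and 164, 169 and 169 in controls. The same minimum applied to autosomal antisense genes found 106 genes, 32.1% of them in all 6 libraries, 49.1% in libraries labelled Jun knockdown only and 18.9% in controls only. The lincRNAs split in the same order, at 37.4%, 47.8% and 14.8%. Among 5938 protein-coding genes found this way the split was 54.7%, 17.6% and 27.7%. Over the 43 members, levels ranked libraries alike to a Spearman coefficient of 0.655 to 0.814 between libraries labelled Jun knockdown, 0.679 to 0.838 between controls and 0.535 to 0.732 across the groups (a description over 43 genes that share libraries).

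The question of the design is which RNAs differ when Jun is targeted. Among the 43 lincRNAs at 5 CPM in all 6 libraries, Gm26825 was lower in the libraries labelled Jun knockdown and no other passed the test (edgeR's quasi-likelihood test on TMM-scaled counts, Benjamini-Hochberg adjustment over 12815 genes, threshold 0.05). Over all tested genes 1.67% were called, 0.32% higher and 1.35% lower, and among the 3595 tested genes at 5 CPM in all 6 libraries 0.556% were called higher and 2.89% lower. Beside the 0 of 43 called higher by edgeR, 2 stood higher at an unadjusted p under 0.05 (Snhg20 and A330069E16Rik), DESeq2 called 1 (A330069E16Rik) and limma-voom 0. The share of all genes at that unadjusted p is not given, so nothing is read from the 2. DESeq2 called 5.52% of all its genes higher and 7.38% lower (12.9% in all), and limma-voom 0.991% and 2.46% (3.45% in all). Most fold changes pointed up all the same: 32 of 43 were positive, with a median log2 fold change of 0.53, against -0.21 and 43.9% positive over the 3595 genes. The corresponding medians were 0.05 for 34 antisense genes and -0.22 for 3251 protein-coding genes. TMM scaling and library totals differ here by a median of 0.50 on the log2 scale for all genes. With library totals the median of the 43 was 1.04 and 38 were positive, while the median of all tested genes was 0.38, against -0.12 with TMM.

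In plain CPM, 21 of the 43 (48.8%) stood higher in every library labelled Jun knockdown than in any control, against 23.1% of the 3595 genes, and 1 (2.33%) stood lower in all, against 14.2%. In TMM-scaled CPM, 12 of the 43 (27.9%) stood higher, against 12.4% of the 3595 genes, and 2 (4.65%) lower, against 22.3%. In plain CPM, the library with the highest level was one labelled Jun knockdown for 40 of the 43. The share over all genes is not given for this count. Library totals also move the fold changes of all genes up from TMM by a median of 0.50 (log2), so nothing particular to lincRNAs is read from it. The spread within groups was wide for some: the highest library exceeded the lowest more than 10 times over for 3 of the 43 among libraries labelled Jun knockdown and for 1 among controls, and the median ratio of highest to lowest was 2.11 in the libraries labelled Jun knockdown and 1.88 in controls.

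**Figure D2:**
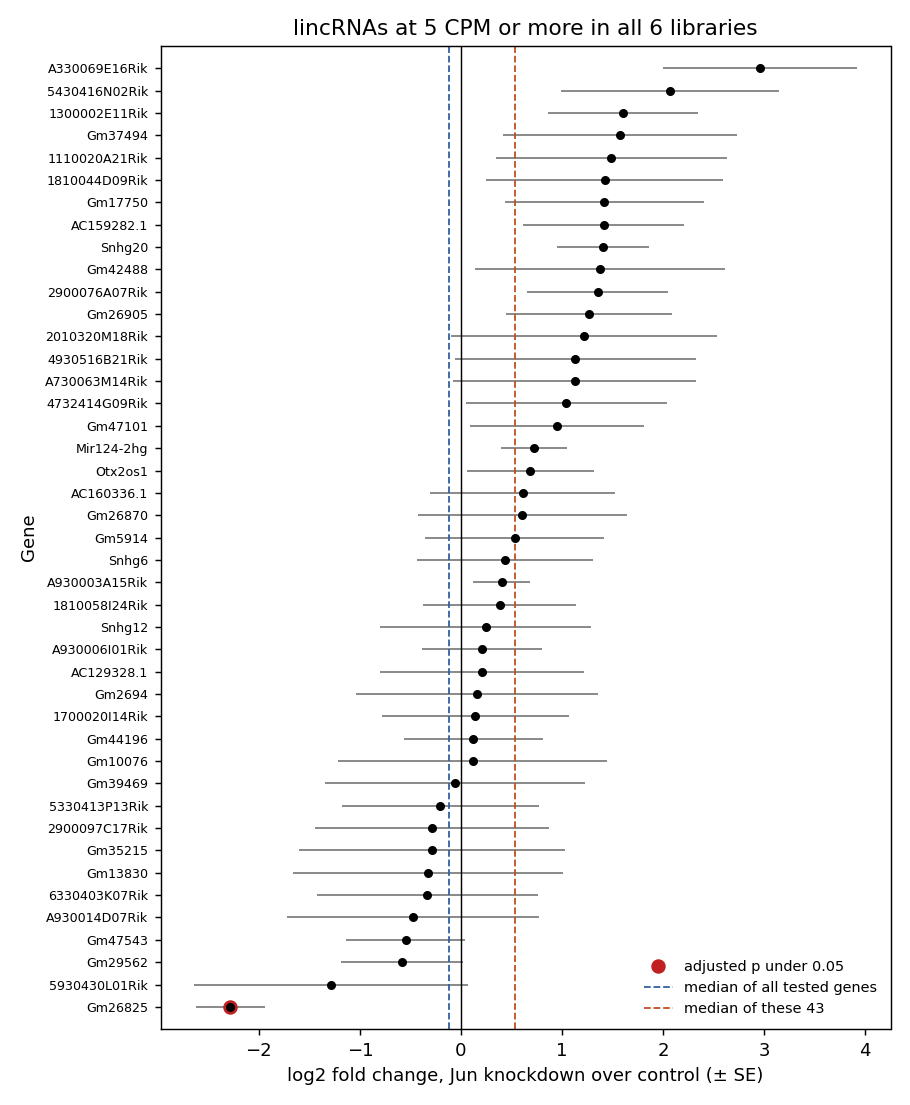
Log2 fold change (libraries labelled Jun knockdown over control, TMM-scaled edgeR fit, bars ± SE) of the 43 lincRNAs at 5 CPM or more in all 6 libraries, with the median of the 43 (0.53) and of all 12815 tested genes (-0.12) as dashed lines. Gm26825, in red, is the 1 gene with an adjusted p under 0.05.

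Gm26825 (ENSMUSG00000097554, chr5:5781530-5783636, plus strand) is a predicted gene with at most 2 exons and 1 annotated transcript. It stood at 197, 215 and 206 CPM in the libraries labelled Jun knockdown, against 733, 738 and 665 CPM in controls. The groups did not overlap, and within each group the 3 libraries lay close together. This was a log2 fold change of -2.28 (SE 0.34, adjusted p = 0.0157 by edgeR), lower in 3 of 3 libraries. The call held under each other scaling, filter and tool tried. Leaving out any 1 library other than replicate 3 of those labelled Jun knockdown took the adjusted p to between 0.0530 and 0.0864, with log2 fold changes of -2.35 to -2.21 over the 6 omissions. Per kilobase of exon it was the second most abundant member in controls, at 351 CPM per kb, and stood at 102 CPM per kb in the libraries labelled Jun knockdown. The summed rod markers were lower in the same libraries, by the values given above, and their part in this call was not tested.

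The most abundant member was A930003A15Rik (ENSMUSG00000075330, chr16:19876567-19884274, minus strand), a RIKEN transcript of 1126 exonic bases. It held 3059, 2252 and 2641 CPM in the libraries labelled Jun knockdown, against 1508, 1086 and 1726 CPM in controls. Every library of the first group stood above every control in plain CPM. The TMM-scaled log2 fold change of 0.40 (SE 0.28, adjusted p = 0.503) was within what the libraries' spread allows. Per kilobase it led all members, at 2354 CPM per kb in the libraries labelled Jun knockdown and 1279 CPM per kb in controls. Its nearest protein-coding gene, Klhl6, a gene of B lymphocytes, lay 62222 bases away and had 0, 0 and 0.195 CPM in libraries labelled Jun knockdown against 0.0626, 18.1 and 0 CPM in controls, so it was near 0 in all libraries but control replicate 2.

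Among the microRNA hosts, Mir124-2hg was the most abundant. This gene (chr3:17789921-17808970, plus strand) holds the gene of miR-124-2, one of the copies of miR-124, a highly abundant neuronal microRNA. It stood at 913, 1009 and 1081 CPM in the libraries labelled Jun knockdown and at 517, 366 and 409 CPM in controls. The groups did not overlap, yet the gene did not pass (log2 fold change 0.72, SE 0.33, adjusted p = 0.309 by edgeR). C130071C03Rik (chr13:83721381-83884194, plus strand) holds Mir9-2, a source of miR-9, which acts in neural progenitors and retinal development. It reached the minimum only in the libraries labelled Jun knockdown, with 81.9, 10.8 and 29.7 CPM, against 0.387, 19.998 and 3.81 CPM in controls. Its groups overlapped, since control replicate 2 exceeded replicate 2 of the other group. The neighbour 54301 bases away, Mef2c, a transcription factor of neurons and muscle, averaged 76.6 CPM in libraries labelled Jun knockdown against 26.3 CPM in controls (adjusted p = 0.608 by edgeR). 2900076A07Rik, which holds Mir1839, had 125, 167 and 170 CPM in libraries labelled Jun knockdown against 60.8, 28.8 and 37.0 CPM in controls. It did not overlap between groups and did not pass (log2 fold change 1.35, SE 0.70, adjusted p = 0.361). The 12 symbols listed as microRNA hosts stood for 11 genes of the table, of which 2 were members and 0 of 6 tested were called by edgeR.

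Of 21 small nucleolar RNA hosts listed, 20 were in the table and tested, 5 were members and 0 were called by edgeR. The median log2 fold change was 0.91 over the 19 found under the listed symbol. Snhg20 (chr11:117076008-117078955, plus strand), which holds a small nucleolar RNA and Mir6516, was the most abundant of the 5 members. It had 325, 474 and 356 CPM in the libraries labelled Jun knockdown, against 116, 85.5 and 105 CPM in controls. Its lowest value in the first group was well above its highest control. The log2 fold change of 1.40 (SE 0.45) had an unadjusted p of 0.0127 and an adjusted p of 0.164. Snhg6, host of Snord87, had 69.7, 65.7 and 54.8 CPM in libraries labelled Jun knockdown against 39.2, 25.9 and 34.2 CPM in controls. Snhg12, host of Snora44, Snora61, Snora16a and Snord99, had 27.1, 37.1 and 42.3 CPM in libraries labelled Jun knockdown against 19.3, 21.6 and 23.4 CPM in controls. Both stood higher in every library labelled Jun knockdown than in any control in plain CPM, but with TMM scaling their log2 fold changes were only 0.44 (SE 0.87) and 0.24 (SE 1.05), adjusted p = 0.829 and 0.925. Snhg10 and Snhg18, hosts of Scarna13 and Snord123, reached the minimum in the libraries labelled Jun knockdown only. Snhg10 stood at 21.5, 5.14 and 32.1 CPM in libraries labelled Jun knockdown against 34.2, 12.3 and 0.0267 CPM in controls, so 1 near-empty control kept it out of the set of 43. Snhg18 stood at 6.50, 8.91 and 24.5 CPM in libraries labelled Jun knockdown against 0.0433, 13.5 and 4.25 CPM in controls, again with 1 control near 0.

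Among lincRNAs with a known role as RNA, 1700020I14Rik (RefSeq symbol Oip5os1, the mouse Cyrano), which binds miR-7 and brings about its decay, had 623, 236 and 19.6 CPM in the libraries labelled Jun knockdown, against 217, 174 and 178 CPM in controls. The controls were even, while the other 3 libraries lay on both sides of them. Its log2 fold change of 0.14 (SE 0.92, adjusted p = 0.953 by edgeR) turned to -1.24 without replicate 1 of the libraries labelled Jun knockdown. 2900097C17Rik (RefSeq symbol Norad), which binds Pumilio proteins and keeps chromosome number stable in human cells, had 12.6, 65.4 and 15.97 CPM in libraries labelled Jun knockdown against 21.2, 38.9 and 16.3 CPM in controls. Its groups overlapped, and its log2 fold change of -0.28 (SE 1.16, adjusted p = 0.921) was 0.30 with library totals, so no direction can be given. Otx2os1 (chr14:48668708-48870683, plus strand) overlaps Otx2, the homeobox factor that starts photoreceptor fate, on the opposite strand. It had 185, 143 and 137 CPM in libraries labelled Jun knockdown against 65.5, 49.5 and 93.0 CPM in controls, with no overlap in plain CPM, and did not pass (log2 fold change 0.69, SE 0.63, adjusted p = 0.614). Otx2 averaged 256 CPM in libraries labelled Jun knockdown against 708 CPM in controls (log2 fold change -1.92, adjusted p = 0.115 by edgeR). No step that marks strand is stated for these libraries, so reads from Otx2os1 and Otx2 cannot be told apart where they overlap. The 22 symbols listed as other named noncoding RNAs stood for 21 genes of the table, after matching RefSeq synonyms, of which 3 were members (1700020I14Rik, 2900097C17Rik and Otx2os1) and 0 of 9 tested were called by edgeR. Of 9 imprinted noncoding RNAs listed, 8 rows were tested, 0 were called and none was a member.

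**Figure D3:**
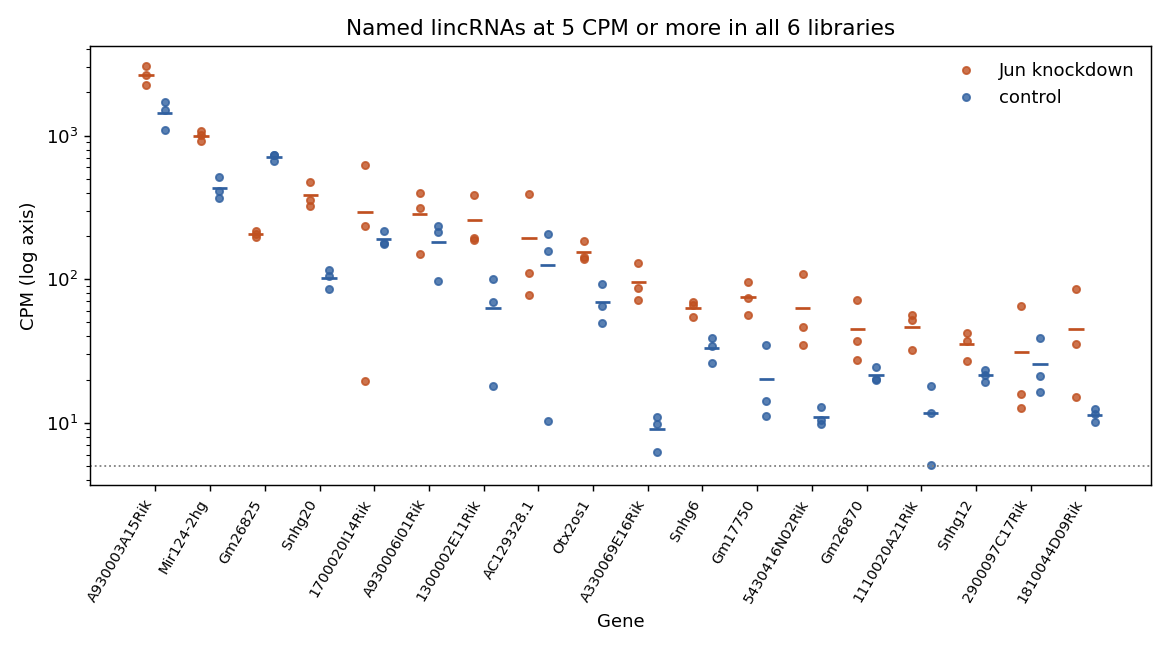
CPM (log axis) of the 18 named lincRNAs at 5 CPM or more in all 6 libraries, one point per library, with a line at the mean of 3; libraries labelled Jun knockdown are left of controls and the dotted line marks 5 CPM. Gm26825 is the 1 gene whose libraries labelled Jun knockdown all lie below the controls, and 1700020I14Rik and AC129328.1 show the widest spread within a group.

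The largest fold changes without overlap in plain CPM among the 43 belonged to genes with RIKEN or predicted names. A330069E16Rik (chr2:91237146-91238352, plus strand) starts 164 bases from Ddb2, a DNA damage recognition gene on the opposite strand. It stood at 130, 71.6 and 86.9 CPM in the libraries labelled Jun knockdown, against 6.20, 9.76 and 11.0 CPM in controls. The groups were far apart, but the log2 fold change of 2.96 (SE 0.96) had an adjusted p of 0.165 by edgeR, and 0.0121 by DESeq2. Ddb2 averaged 21.2 CPM in libraries labelled Jun knockdown against 13.4 CPM in controls, with a log2 fold change of 0.10 (adjusted p = 0.987). 5430416N02Rik had 109, 34.7 and 46.4 CPM in libraries labelled Jun knockdown against 9.86, 12.9 and 10.4 CPM in controls, a log2 fold change of 2.07 (SE 1.08, adjusted p = 0.365). Its controls were tight and its replicate 1 in the other group was the highest. 1300002E11Rik, whose promoter with a cAMP response element is printed above, had 195, 189 and 387 CPM in libraries labelled Jun knockdown against 17.9, 69.8 and 101 CPM in controls, a log2 fold change of 1.60 (SE 0.74, adjusted p = 0.312). It overlaps Map3k13, a kinase gene upstream of JNK, on the same strand, so reads of the pair may be shared. Their 5′ ends lie 28 bases apart, so the printed promoter cannot be assigned to the lincRNA alone. Map3k13 averaged 23.6 CPM in libraries labelled Jun knockdown against 10.4 CPM in controls (adjusted p = 0.849). 1810044D09Rik, the other gene with a printed cAMP response element, had 15.04, 85.2 and 35.4 CPM in libraries labelled Jun knockdown against 12.5, 10.1 and 11.5 CPM in controls. Its groups did not overlap in plain CPM, by a narrow margin, but they overlapped with TMM scaling. It did not pass (log2 fold change 1.42, SE 1.17, adjusted p = 0.574). Gm17750 had 74.5, 56.4 and 95.8 CPM in libraries labelled Jun knockdown against 35.0, 11.1 and 14.2 CPM in controls, and 1110020A21Rik had 32.0, 51.8 and 56.4 CPM in libraries labelled Jun knockdown against 18.1, 5.10 and 11.7 CPM in controls. Neither overlapped in plain CPM, but with TMM scaling the groups of Gm17750 overlapped. Neither passed, with log2 fold changes of 1.42 (SE 0.98, adjusted p = 0.499) and 1.49 (SE 1.14, adjusted p = 0.544).

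Among the other abundant members, A930006I01Rik had 315, 149 and 396 CPM in the libraries labelled Jun knockdown, against 213, 96.6 and 234 CPM in controls. AC129328.1 had 391, 110 and 77.8 CPM in libraries labelled Jun knockdown against 10.2, 158 and 206 CPM in controls. Both overlapped between groups, and the direction of either changed when single libraries were left out. The second is 1 of 4 members that lie close together on chromosome 17, between positions 16951539 and 17374206, among zinc finger genes. The others there, BC002059, Gm6712 and AC154200.1, reached the minimum in the libraries labelled Jun knockdown only. In all, 7 members had a Zfp zinc finger gene as nearest neighbour, 2 of the set of 43 and 5 that reached the minimum in the libraries labelled Jun knockdown only. Zinc finger clusters hold near-identical copies, between which estimated counts can be split, so these levels are uncertain. The same holds for Gm26870, in a satellite repeat region of chromosome 9, with 27.2, 37.0 and 71.3 CPM in libraries labelled Jun knockdown against 20.1, 24.3 and 19.97 CPM in controls, a log2 fold change of 0.61 (SE 1.04, adjusted p = 0.801). Of 14 ribosomal and satellite repeat genes listed, Gm26870 was the 1 member, and 0 of 11 tested were called by edgeR.

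The 55 members that reached 5 CPM in the libraries labelled Jun knockdown only averaged between 7.05 and 171 CPM there, with a median of 25.0 CPM, and between 0 and 47.7 CPM in controls, with a median of 4.74 CPM. Gm26804 had 221, 155 and 136 CPM in libraries labelled Jun knockdown against 2.42, 1.04 and 4.35 CPM in controls and is the 1 member called higher, a call that the rule favours and from which nothing is read. Bc1 (chr7:144914470-144914637, plus strand), the short dendritic RNA made by RNA polymerase III that restrains translation in rodent neurons, had 68.1, 69.6 and 88.5 CPM in libraries labelled Jun knockdown against 2.11, 8.64 and 16.9 CPM in controls. It was even across the libraries labelled Jun knockdown and uneven across controls, and at 449 CPM per kb there, against 54.8 CPM per kb in controls, it was the second most abundant member per length in the libraries labelled Jun knockdown. D930016D06Rik, which RefSeq lists as the protein-coding gene Thoc2l, had 102, 177 and 74.9 CPM in libraries labelled Jun knockdown against 25.6, 25.7 and 4.13 CPM in controls. Its neighbour 3124 bases away, BC005561, averaged 142 CPM in libraries labelled Jun knockdown against 5.15 CPM in controls (log2 fold change 4.31, adjusted p = 0.0570 by edgeR). Gm26815 and Gm45184 were even in the libraries labelled Jun knockdown, at 67.1, 75.5 and 71.4 CPM and at 75.4, 71.0 and 68.7 CPM. In controls Gm26815 had 1.91, 11.3 and 29.97 CPM, and Gm45184 had 4.07, 3.55 and 26.3 CPM. 3222401L13Rik, with 147, 69.9 and 170 CPM in libraries labelled Jun knockdown against 2.03, 16.9 and 17.1 CPM in controls, also had groups that did not overlap. BC002059, with 139, 211 and 44.3 CPM in libraries labelled Jun knockdown against 112, 26.4 and 4.60 CPM in controls, and AC163032.1, with 50.9, 164 and 84.4 CPM in libraries labelled Jun knockdown against 0.0626, 66.1 and 0.985 CPM in controls, overlapped because 1 control was high. Gm30382 and Gm14216 had 0 counts in all 3 controls. They stood at 10.3, 53.4 and 13.9 CPM and at 9.25, 8.70 and 8.79 CPM in the libraries labelled Jun knockdown. A floor of 3 counts over the control group is 0.0163 CPM (counting error only). The pooled counts of the libraries labelled Jun knockdown stood 1578-fold and 547-fold above it, which the rule favours and from which nothing is read. The highest library labelled Jun knockdown exceeded the lowest more than 10 times over for 3 of the 55. In controls it did so, or the lowest was 0, for 26 of the 55. The rule sets a floor in the libraries labelled Jun knockdown for these genes and none in controls.

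The 17 members that reached 5 CPM in controls only averaged between 7.04 and 60.5 CPM in controls and between 0.370 and 70.0 CPM in the libraries labelled Jun knockdown. In 14 of the 17 the highest library labelled Jun knockdown exceeded the lowest more than 10 times over, or the lowest was 0, against 0 of 17 in controls, where the rule sets the floor. The mean was nevertheless higher in the libraries labelled Jun knockdown for 6 of the 17. C230057A21Rik (chr3:8732870-8736360, minus strand) was the clearest, with 0.825, 0 and 0.286 CPM in libraries labelled Jun knockdown against 123, 33.2 and 24.9 CPM in controls. It was near 0 in all 3 libraries labelled Jun knockdown and high in control replicate 1. 2810032G03Rik had 0.154, 3.96 and 0.0577 CPM in libraries labelled Jun knockdown against 19.2, 23.1 and 51.5 CPM in controls, and Gm42555 had 0.356, 9.90 and 8.25 CPM in libraries labelled Jun knockdown against 44.0, 14.5 and 29.6 CPM in controls. A330094K24Rik had 29.7, 0.0341 and 0.0997 CPM in libraries labelled Jun knockdown against 66.4, 30.3 and 63.2 CPM in controls. These 4 did not overlap between groups. Gm37724 (32.2, 51.6 and 4.51 CPM in libraries labelled Jun knockdown against 73.1, 44.6 and 45.9 CPM in controls), 5031425E22Rik (68.8, 3.92 and 25.0 CPM in libraries labelled Jun knockdown against 13.6, 38.6 and 43.01 CPM in controls) and Gm44532 (12.3, 5.03 and 2.96 CPM in libraries labelled Jun knockdown against 29.1, 38.9 and 9.97 CPM in controls) overlapped between groups. D730003I15Rik, the gene with the AP-1 motif printed above, had 62.8, 0.0754 and 29.6 CPM in libraries labelled Jun knockdown against 18.4, 7.30 and 44.6 CPM in controls. It lies 6415 bases from Atf3, a stress-induced partner of Jun, transcribed the other way, and Atf3 averaged 7.59 CPM in libraries labelled Jun knockdown against 43.1 CPM in controls (log2 fold change -3.16, adjusted p = 0.375 by edgeR).

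The members nearest the minimum show how close the rule's edge was. Just inside lay A530017D24Rik, A630075F10Rik and Snhg10, with lowest values of 5.10, 5.11 and 5.14 CPM in the libraries labelled Jun knockdown. Just outside lay Gm26538, Gm43597 and Gm20342, with 4.95, 4.93 and 4.93 CPM there.

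The rule did not name the structure of the genes. Its minimum in CPM is not scaled to length, however, and can favour longer transcripts, so the lengths are a description only. Members had a median exonic length of 2099 bases (168 for Bc1 to 93147 for AC160336.1), against 1000 bases for the other 4794 lincRNAs. They had a median of 3 exons in the transcript with most exons, 14 of 115 (12.2%) had a single exon, against 6.01% of the others, and the median GC content of the longest transcript was 44.9% against 46.5%. For 62 members 1 transcript is annotated. In the other 53, the transcript with most counts held a median of 80.1% of them, with a lowest value of 42.3%, in A930003O13Rik, and it held under 60% in 13 of the 53. The gene count lay within 10% of the sum of its transcript counts for 89 of 115, with a range of the ratio from 0.584 in Gm37494 to 3.92 in 4930555F03Rik, so the levels of genes far from 1 depend on how the authors made the gene table. Over the 43, the log2 fold change had Spearman coefficients of 0.09 with exonic length, -0.14 with GC content and 0.26 with exon number, given as descriptions across genes. RefSeq held 61 of the 115 under the same symbol or a synonym at the same place, as 53 noncoding genes, 1 pseudogene (Gm10076) and 7 protein-coding genes. The protein-coding ones were D930016D06Rik (Thoc2l), Gm6712, 1810058I24Rik, Gm37494 (Gm33989), 6330403K07Rik, 4930516B21Rik (matched as a synonym of Acvr2b) and Gm39469. The match of 4930516B21Rik rests on a synonym, and its nearest deposited protein-coding gene was Exog, at a gap of 74 bases. Whether it belongs to Acvr2b was not tested. For the others of these genes the label lincRNA depends on the annotation.

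lincRNAs often start next to or opposite a protein-coding gene, and some are known to act on that neighbour, so the nearest protein-coding gene of each member was examined. The 115 members had 109 distinct neighbours, with a median gap of 3982 bases. The neighbour was transcribed away from the member (divergent) for 37 and converged on it for 14. It overlapped the member on the opposite strand for 21 and on the same strand for 7. On the same strand without overlap, 20 members lay upstream of the neighbour and 16 downstream of it. For 20 members the 5′ ends of the pair lay within 2000 bases on opposite strands, the layout of a shared promoter region. Of 82 tested neighbours, 1 was called higher and 0 lower by edgeR, against 0.262% higher and 1.54% lower over 10293 autosomal protein-coding genes. At an unadjusted p under 0.05, 6 stood higher and 6 lower. The share of all genes at that unadjusted p is not given, so nothing is read from these 2 counts. DESeq2 and limma-voom also called 0 lower. The called gene was Ncam1, a neural cell adhesion molecule, 155953 bases from Gm47543, with 1187, 1512 and 1868 CPM in the libraries labelled Jun knockdown against 116, 96.1 and 208 CPM in controls. All 3 of these libraries were far above all controls (log2 fold change 2.96, SE 0.42, adjusted p = 0.0123 by edgeR), and the call ended without control replicate 1 or without control replicate 2. Gm47543 itself was even, at 137, 104 and 100.3 CPM in libraries labelled Jun knockdown against 139, 116 and 99.8 CPM in controls, a log2 fold change of -0.55 (SE 0.59, adjusted p = 0.672).

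**Figure D4:**
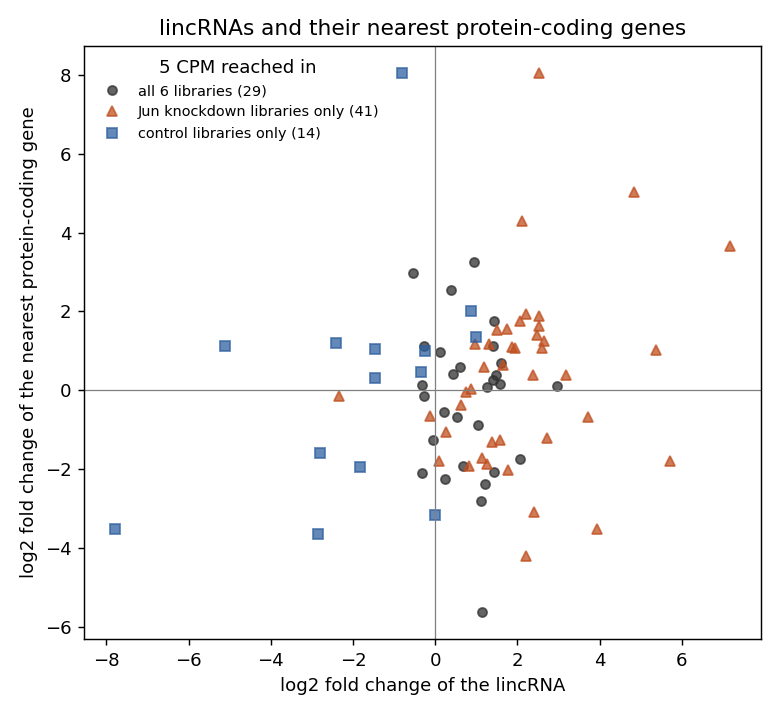
Log2 fold change (libraries labelled Jun knockdown over control) of 84 lincRNAs (horizontal axis) and of their nearest protein-coding genes (vertical axis), marked by where the lincRNA reached 5 CPM; 2 lincRNAs with 0 counts in all controls are left out. Points lie in all 4 quadrants, and over the 29 pairs of the set of 43 the Spearman coefficient was -0.06.

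Fold changes of members and neighbours can be set side by side. Over 86 pairs with both tested, 48 had the same sign, with a Pearson coefficient of 0.18 and a Spearman coefficient of 0.20. Over the 29 pairs of the 43 they were -0.13 and -0.06, and 16 had the same sign. These are descriptions across genes of the same libraries. Head-to-head pairs show the range. 4930516B21Rik starts 74 bases from Exog, a mitochondrial nuclease gene, and had 28.8, 28.1 and 26.2 CPM in libraries labelled Jun knockdown against 9.48, 9.40 and 8.01 CPM in controls, a log2 fold change of 1.13 (SE 1.20, adjusted p = 0.665). Exog had 0.383, 1.78 and 0.707 CPM in libraries labelled Jun knockdown against 0.244, 99.6 and 0.0577 CPM in controls (log2 fold change -5.63, adjusted p = 0.312), so its direction rests on control replicate 2 alone. A730063M14Rik, 111 bases from the tetraspanin gene Tspan31, had 38.3, 16.3 and 42.0 CPM in libraries labelled Jun knockdown against 7.88, 9.43 and 15.6 CPM in controls, while Tspan31 had 1.22, 50.9 and 114 CPM in libraries labelled Jun knockdown against 201, 234 and 414 CPM in controls (adjusted p = 0.277). In plain CPM, the second lincRNA stood higher and its neighbour lower in every library labelled Jun knockdown than in any control. With TMM scaling the groups of this lincRNA overlapped. No gene of either pair passed. C130060C02Rik, 101 bases from the centrosome gene Cep78, had 8.33, 10.5 and 34.4 CPM in libraries labelled Jun knockdown against 0, 0 and 1.43 CPM in controls, and Cep78 had 14.6, 14.3 and 0.0672 CPM in libraries labelled Jun knockdown against 0.0210, 0.574 and 0 CPM in controls (adjusted p = 0.328). The library in which this lincRNA was highest was thus the one labelled Jun knockdown in which Cep78 was near 0. Pairs of members shared 6 neighbours: Otx2, Klhl29, Riok2, Tenm3, Gm765 and Gm20388. Gm32296, downstream of Fos on the same strand at 52325 bases, had 80.7, 27.9 and 10.3 CPM in libraries labelled Jun knockdown against 2.99, 3.44 and 29.4 CPM in controls, and Fos, the main dimer partner of Jun, averaged 186 CPM in libraries labelled Jun knockdown against 59.6 CPM in controls (adjusted p = 0.668).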

How the data were processed

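RNA of flow-sorted mouse rods was measured in 6 libraries, 3 labelled Jun knockdown and 3 control. Per the labels' protocols, cDNA of whole transcripts came from a SMART-seq v4 kit for low input, and Nextera XT made the libraries. The authors deposited estimated counts (expected counts, not whole numbers) for genes and transcripts, together with a scaled gene table. The submitters' processing notes list Trimmomatic 0.39, kallisto 0.44.0 and edgeR 3.28.1 but no role for any of them. They name no genome build. Of the deposited gene IDs, 51336 were found in GENCODE vM21, 98.2% of them at the same coordinates, so coordinates are the deposited ones and correspond to GRCm38 (the IDs of 115 members were found, 112 at the same place). The deposited normalised values summed to over 1000000 in each library and equal CPM times 1 factor per library, so they were handled as a signal scaled by the authors and used only as an alternative. No sample column was left out (0 columns).

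Printed levels are CPM from the deposited counts and library totals, and fold changes come from TMM-scaled counts. Expected counts were rounded, filtered with filterByExpr and tested with edgeR 4.0.16 (R 4.3.3; quasi-likelihood, group alone, Benjamini-Hochberg over 12815 genes, threshold 0.05). Standard errors were derived from the log2 fold change and its F statistic. The functions were tested on simulated counts. The members, lists and named genes were chosen with earlier results of these data known. Named were the 8 members with the highest mean TMM-scaled CPM over all libraries, the 8 with the highest mean CPM in the group that chose them in each of the sets of 55 and 17 (which favours members that differ in that direction), the members of the lists, up to 6 with the largest fold change and no overlap in either direction, and 3 on each side of the minimum. Overlap was judged there in plain CPM. Those named beyond the rule were chosen after their values were seen. A gene that the rule names is not reported here. The nearest protein-coding gene was taken by gap. Replicate numbers are shared by the groups, and the labels give no source for them. Deviations of same-numbered libraries did not correlate (coefficients of 0.000422, 0.008043 and -0.015130 over 12815 genes), and the main test used no pairing. These coefficients cannot exclude a source shared by same-numbered libraries that moves few genes. Alternatives were other scalings and filters, DESeq2 1.42.0, limma 3.58.1 (voom; trend on log2 of the authors' signal plus a pseudocount, 0.5 or 2), thinning, the replicate number as a block, and each library left out in turn. No molecular identifiers were used that the labels name, so reads are not separate molecules and the floor covers counting error only. The depth of the libraries labelled Jun knockdown limits the precision at low levels.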

Additional observations from a re-analysis of the deposited data

How the results depend on the processing

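The set grew to 209 members with a minimum of 2 CPM and shrank to 76 with 10 CPM. Among all members, the count called higher (1) was 2 without a filter on low counts, 2 with a filter of 1 CPM in 3 libraries, 8 by DESeq2, 5 by limma-voom, and 4 and 2 by limma-trend with pseudocounts of 0.5 and 2. The count called lower (1) was 2 without a filter, 4 by DESeq2, 3 by limma-voom and 2 by limma-trend with either pseudocount. DESeq2 called 12.9% of 15502 genes, so its larger counts are no sign about the members. The share called over all genes is not given for the other filters, limma-trend or the fits with 1 library left out. Nothing about the members or their neighbours is therefore read from the counts under those settings. Leaving out 1 library gave 0 higher in every case and 0 to 1 lower, also within the 43 members at 5 CPM in all 6 libraries, where DESeq2 called 1 higher against 0. Neighbours called higher (1) were 3 without a filter, 3 by DESeq2, 2 by limma-voom, 2 by limma-trend with either pseudocount and 0 to 1 with 1 library left out. Neighbours called lower (0) were 4 without a filter and 1 by limma-trend with either pseudocount. The count of positive fold changes among the 43 (32) ran from 28 to 38 over the 17 alternatives, and their median log2 fold change from 0.37 to 1.04, above that of all tested genes by 0.20 to 0.83. The split of all calls into higher and lower was 41 and 173 with TMM, 68 and 79 with library totals. The share of autosomal lincRNA rows differed by 2.10 percentage points, or 0.743 without Malat1, an alternative chosen after seeing the data.

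Over 18 named genes and 17 alternatives, 284 of 306 fold changes kept their direction and side of the threshold. For 1700020I14Rik (0.14) the value was -0.86 by limma-voom, -1.08 and -1.06 by limma-trend with pseudocounts of 0.5 and 2, and -1.24 to 0.68 with 1 library left out, negative without replicate 1 labelled Jun knockdown. For A930006I01Rik (0.21) limma-trend gave -0.038 and -0.037, and leaving out replicate 3 labelled Jun knockdown or control replicate 2 gave -0.15 and -0.10, within a range up to 0.57. AC129328.1 (0.21) was at -0.96 without replicate 1 labelled Jun knockdown and -0.36 without control replicate 1, and at most 0.74 with another left out. 2900097C17Rik (-0.28) was at 0.15 with upper quartile scaling, 0.30 with library totals, 0.035 after thinning, 0.048 without replicate 1 labelled Jun knockdown and 0.14 without control replicate 2, and at the lowest -1.22 with another left out. The cause was not tested.

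With the replicate number as a block, 0 members were called higher, Gm26825 stayed called (adjusted p = 0.0431 by edgeR) and 1700020I14Rik turned to -0.76. The numbers share no source in the labels and the block removed residual degrees of freedom. Depth limits what the libraries labelled Jun knockdown can show near 5 CPM.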
